A study of Mus musculus with 15 samples.

Results

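The acinar transcription factors described here are 9 genes of the pancreatic acinar and foregut programme: Ptf1a, Rbpjl, Bhlha15, Nr5a2, Gata4, Gata6, Hnf4a, Foxa2 and Foxa3. They were chosen by name, as the rows of the deposited count table that carry their Ensembl identifiers. They are 9 of 43432 genes in the table, and all 9 were among the 16736 genes tested. The RNA came from 266-6, an established line of mouse pancreatic acinar tumour cells, kept in stripped medium for 24 h before 24 h of ligand exposure. The 5 groups of 3 libraries received the vehicle DMSO, AM580 (an agonist of the retinoic acid receptor RARα), CD3254 (an agonist of the retinoid X receptors, RXR), AM580 with CD3254, or 9-cis retinoic acid, which binds both receptor families. All groups share the 1 cell line and the stripped medium, and the labels give no ligand dose. The labels do not tie the replicates to separate cultures, and the spread that p-values are set against may thus be technical.

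Acinar cells make and secrete digestive enzymes, and a small set of transcription factors keeps that state. PTF1A, a basic helix-loop-helix protein, pairs with a common E protein and with RBPJL (in the embryo RBPJ) in the trimeric PTF1 complex, which binds an E-box next to a TGGGAA-type site in the promoters of enzyme genes and in its own regulatory regions. BHLHA15 (MIST1), another helix-loop-helix protein, scales up the secretory apparatus, and the nuclear receptor NR5A2 (LRH-1) works with PTF1 on acinar genes. GATA4 and GATA6 are zinc-finger factors of the developing foregut, HNF4A is a nuclear receptor of gut and liver epithelia, and FOXA2 and FOXA3 are forkhead factors that open chromatin in those tissues. RARα acts on DNA as a heterodimer with RXR, usually at repeats of an AGGTCA-type half-site.

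Promoter windows of 4 members are shown because they carry the motif letters named above, or lack them. The sequences are from RefSeq on GRCm38.p6, whose table held 7 of the 9 genes, 3 of them with more than 1 start. Gata4 and Gata6 had no entry. Each run is 5′ to 3′ on the gene's strand and covers the 250 bases before the start, except that Rbpjl is given up to its earliest annotated transcript start. In the first 3, capitals mark every E-box (CANNTG) and every RBPJ site (TGGGAA, either strand). In Nr5a2 they mark the nuclear receptor half-site (AGGTCA, either strand).
Rbpjl, chr2:164402944-164403140, plus strand: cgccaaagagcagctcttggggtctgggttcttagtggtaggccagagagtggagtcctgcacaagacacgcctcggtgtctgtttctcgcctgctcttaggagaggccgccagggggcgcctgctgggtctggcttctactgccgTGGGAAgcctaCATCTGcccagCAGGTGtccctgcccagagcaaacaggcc
Ptf1a, chr2:19445413-19445662, plus strand: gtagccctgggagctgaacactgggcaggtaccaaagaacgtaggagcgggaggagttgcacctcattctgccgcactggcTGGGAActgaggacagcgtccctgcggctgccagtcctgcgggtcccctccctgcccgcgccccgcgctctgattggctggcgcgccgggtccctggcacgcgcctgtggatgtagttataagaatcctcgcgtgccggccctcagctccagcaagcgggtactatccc
Bhlha15, chr5:144190036-144190285, plus strand: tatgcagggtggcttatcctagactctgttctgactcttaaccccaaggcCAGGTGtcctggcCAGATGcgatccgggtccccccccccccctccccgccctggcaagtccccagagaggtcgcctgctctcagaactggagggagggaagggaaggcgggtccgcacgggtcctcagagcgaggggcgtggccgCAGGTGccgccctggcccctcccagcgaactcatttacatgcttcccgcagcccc
Nr5a2, chr1:136960449-136960698, minus strand: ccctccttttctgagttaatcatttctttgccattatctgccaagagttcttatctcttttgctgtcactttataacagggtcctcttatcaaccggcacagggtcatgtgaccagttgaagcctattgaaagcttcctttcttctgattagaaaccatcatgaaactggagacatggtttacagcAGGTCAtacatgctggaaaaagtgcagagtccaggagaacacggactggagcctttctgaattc
The Rbpjl window held 1 TGGGAA and 2 E-boxes within 30 bases of each other. At least 1 E-box and 1 TGGGAA at that distance were found in 5.93% of all promoter windows. Among the 7 members with a window, Rbpjl was the 1 with both motifs at that distance. Ptf1a had 1 TGGGAA and 0 E-boxes, and Bhlha15 had 3 E-boxes and 0 TGGGAA, against 21.6% and 66.2% of all 32851 windows with at least 1 match. The half-site AGGTCA occurred once, in the Nr5a2 window at 136960449 to 136960698, and in 14.0% of all windows. A match is a stretch of letters and not a measured binding site.

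The members' gene models are those of GENCODE M21 on GRCm38, and counts sum reads over all exons of a gene. Ptf1a (ENSMUSG00000026735) lies on chromosome 2 from 19445663 to 19447501, Rbpjl (ENSMUSG00000017007) on chromosome 2 from 164403141 to 164415448, and Bhlha15 (ENSMUSG00000052271) on chromosome 5 from 144190286 to 144194441. Nr5a2 (ENSMUSG00000026398) spans 136842571 to 136960448 of chromosome 1. Gata4 (ENSMUSG00000021944) spans 63198922 to 63271692 of chromosome 14, and Gata6 (ENSMUSG00000005836) is on chromosome 18. Hnf4a (ENSMUSG00000017950, 163506808 to 163572910) and Foxa2 (ENSMUSG00000037025, 148042877 to 148046969) are also on chromosome 2, and Foxa3 (ENSMUSG00000040891) covers 19013284 to 19023538 of chromosome 7. All 9 are protein-coding. No source used here says whether counting used strand, and reads shared with an antisense gene cannot be assigned. The antisense gene Ptf1aos covers 40.4% of the exon bases of Ptf1a and stood at a median of 0.200 CPM (read counts brought to 1 common total by TMM scaling). Matn4, which overlaps 2.60% of the exon bases of Rbpjl on the other strand, had a median of 118 CPM. The noncoding gene 1010001N08Rik overlaps 1.43% of the Gata6 exon bases and had a median of 0.516 CPM.

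The 15 libraries fell into 2 sets that the treatment labels do not explain. The first principal component of log2 CPM, with 48.3% of the variance, parted DMSO, AM580, CD3254 and 9-cis retinoic acid replicate 1 and replicate 2 of the joint treatment from the other 10. The labels name no batch or culture state for these 5 libraries, called here the smaller set. Because the sets were read from the same counts, differences between them are described with no p-value. Gene reads numbered from 28501170 to 46801058 in 14 libraries. 9-cis retinoic acid replicate 3 had 14600962, with 63.0% of its reads not assigned to a gene against 18.1% to 28.5% elsewhere. AM580 replicate 1 departed most from the rest of its set by transcript length. Its median log2 difference went from 0.32 for genes with at most 2128 exon bases to -0.38 for those with more than 6200. The gap between these gene groups was -0.70 there. In the other libraries, each against its own set, it ran from -0.32 (9-cis retinoic acid replicate 2) to 0.38 (joint treatment replicate 3). The part of these departures in the members' values was not tested. The acinar label was checked on secreted products. Of 40 acinar enzyme and secretory genes, 24 had a mean of at least 1 CPM, led by Ctrb1 (chymotrypsinogen B1) at 5212 CPM, Cela1 (elastase 1) at 1997 CPM and Prss2 (trypsinogen) at 1084 CPM. The pancreatic amylase genes Amy2a1, Amy2a2, Amy2a3, Amy2a4, Amy2a5 and Amy2b were near 0, at no more than 1.07 CPM in any library. Reads that fit more than 1 of these similar genes may be left uncounted, so the low counts do not show that amylase was absent. Outside the amylases, Cpb1, Ctrc, Ctrl, Gp2 and Pnlip of this list had means of 0.048, 0.067, 0.21, 0.27 and 0.34 CPM. They were named after their values were seen. Of 11 endocrine markers 4 had a mean of at least 1 CPM, led by Chga at 299 CPM, while Ins1 (insulin) had 0 reads in every library. Of 6 immune markers 1 reached that mean, Cd68 at 8.42 CPM, and Ptprc (the leukocyte antigen CD45) did not exceed 0.107 CPM. As a check of the ligands, Cyp26b1, whose product degrades retinoic acid, rose with the joint treatment by 7.85 ± 1.06 (log2 change ± SE, edgeR FDR = 0.024). In the same fit its changes of 3.61 with AM580, 2.94 with CD3254 and 4.89 with 9-cis retinoic acid were not called. The check genes Dhrs3 and Rarb were not called with any treatment there, and their largest changes were 3.19 and 3.21. That fit thus missed large changes.

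All 9 factors were transcribed in every library, and their levels per kilobase of exon spanned about an order of magnitude. In the larger set Gata4 was the highest, at a median of 86.4 CPM per kilobase (range 73.1 to 121, n = 10 libraries). Foxa2 followed at 62.6 (53.0 to 71.2), Nr5a2 at 53.8 (45.0 to 68.3), Rbpjl at 47.5 (35.4 to 67.1) and Ptf1a at 42.5 (33.0 to 47.7) CPM per kilobase. Foxa2, Nr5a2, Rbpjl and Ptf1a each overlapped the next in range, and Gata4 did not overlap Foxa2. Below a gap came Hnf4a at 24.5 (20.5 to 28.3), Foxa3 at 17.1 (14.1 to 19.9), Gata6 at 12.8 (11.9 to 14.95) and Bhlha15 at 8.85 (7.58 to 12.5) CPM per kilobase. Gata6 overlapped both Foxa3 and Bhlha15 in range, and Hnf4a did not overlap Foxa3. By the mean over all 15 libraries, the level per kilobase of Gata4 exceeded that of 96.0% of the tested genes, and each of the 9 exceeded at least 70.1%.

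The comparisons with DMSO ask whether a ligand of RARα, of RXR or of both changed these factors. By the edgeR quasi-likelihood test with Benjamini-Hochberg adjustment (FDR under 0.05), 0 of 9 members were called with any treatment. The background was as low: 0% of the 16736 genes were called with AM580, 0% with CD3254, 0.0179% with the joint treatment and 0% with 9-cis retinoic acid. The interaction of AM580 with CD3254, which asks whether the joint treatment departs from the sum of both, gave 0 members and 0% of genes. A test of any difference between the 5 treatments gave 0 members and 0.00598% of genes. With the library set as a term in the model, the shares of all genes called rose to 0.0299%, 0.0239%, 0.125% and 0.0299% in the 4 comparisons with DMSO, 0% for the interaction and 0.0837% for any difference, and still 0 of 9 members were called in each. The members' unadjusted p fell under 0.05 in 0 of 36 comparisons with DMSO without the term and in 6 of 36 with it. With the term, 2 of 9 members did so for AM580 beside 4.21% of all genes, 0 for CD3254 beside 1.98%, 1 for the joint treatment beside 4.79%, and 3 for 9-cis retinoic acid beside 3.97%.

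The intervals show what size of ligand change these data could miss. Without the term the 95% intervals of the log2 change reached from -1.65 to 1.41 over the 36 values, and 16 of 36 lay within 2-fold either way. With the term all 36 of 36 lay within 2-fold, between -0.73 and 0.79. Changes inside a member's own interval were not told apart, and the missed threshold does not show that levels were equal. The intervals with the term depend on a library set read from the same counts.

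**Figure D1:**
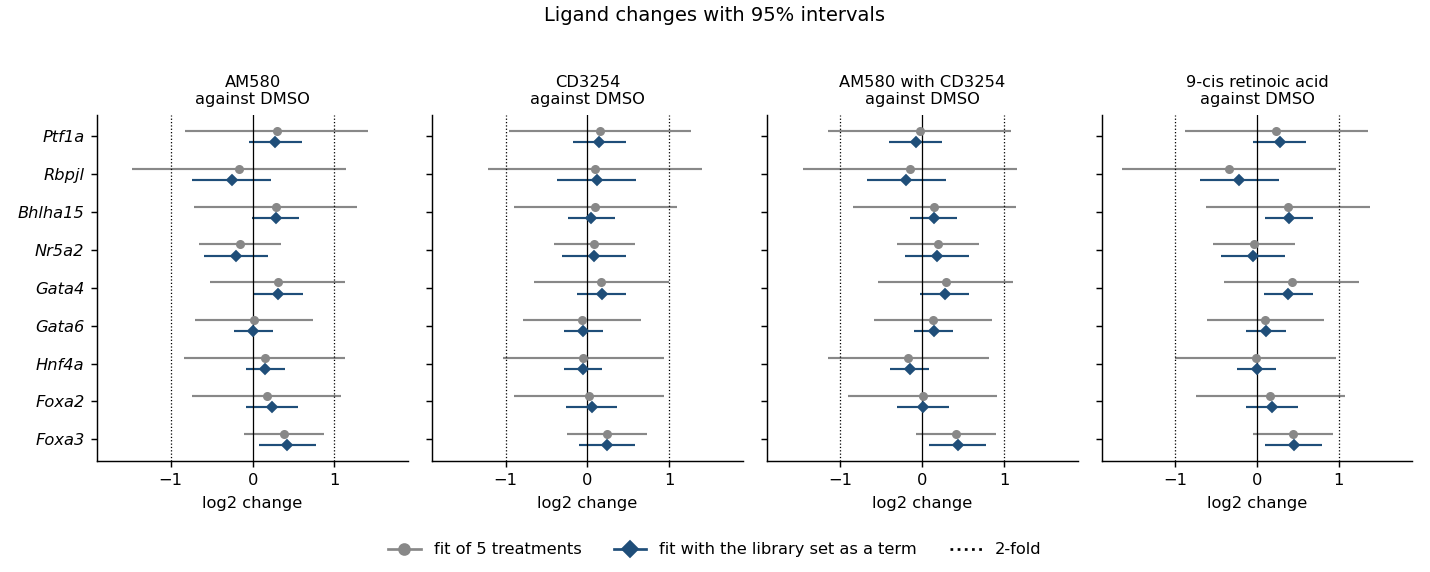
Fitted log2 change against DMSO for each factor (x axis) under the 4 ligand treatments, as points with 95% intervals from the fit of 5 treatments (grey circles) and from the fit with the library set as a term (blue diamonds). Dotted lines mark 2-fold, and all 36 blue intervals lie inside them against 16 of the 36 grey ones.

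The forkhead factor Foxa3 had the largest positive estimate of the 9 members in all 4 comparisons with DMSO when the library set was a term. Its level was 19.7, 31.8 and 28.6 CPM in DMSO replicates 1 to 3, 37.7, 33.6 and 33.3 CPM with AM580, and 23.4, 35.8 and 35.1 CPM with CD3254. It was 40.5, 31.5 and 34.7 CPM with the joint treatment and 28.3, 40.1 and 40.5 CPM with 9-cis retinoic acid. All 3 AM580 libraries were above all 3 DMSO libraries, while each of the other treatments overlapped DMSO. The log2 change was 0.43 ± 0.16 with AM580 (SE, unadjusted p = 0.0194, edgeR FDR = 0.808), 0.24 ± 0.16 with CD3254 (edgeR FDR = 1), 0.43 ± 0.16 with the joint treatment (edgeR FDR = 0.805) and 0.45 ± 0.16 with 9-cis retinoic acid (edgeR FDR = 0.98). Without the term the 4 values were 0.39, 0.24, 0.42 and 0.44, each at an edgeR FDR of 1. The AM580 estimate was 0.19 without AM580 replicate 1, where Foxa3 stood 0.57 higher on the log2 scale than in the rest of the smaller set. Without DMSO replicate 1 the CD3254 estimate was 0.12.

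Gata4 was estimated higher with every ligand. Its level was 165, 305 and 285 CPM in DMSO, 210, 391 and 333 CPM with AM580, 190, 330 and 328 CPM with CD3254, 385, 194 and 341 CPM with the joint treatment, and 183, 359 and 472 CPM with 9-cis retinoic acid, in replicate order. In each treatment the lowest library was the 1 of the smaller set, and every ligand group overlapped DMSO. With the library set term the log2 change was 0.31 ± 0.14 with AM580 (edgeR FDR = 0.808), 0.17 ± 0.14 with CD3254 (FDR = 1), 0.28 ± 0.14 with the joint treatment (FDR = 1) and 0.38 ± 0.14 with 9-cis retinoic acid (FDR = 0.98). The last value was 0.22 without 9-cis retinoic acid replicate 3, the library with the fewest gene reads, whose 472 CPM was the highest Gata4 level of the series. Gata6, its close relative, had estimates between -0.05 and 0.14, 3 of 4 of them above 0.

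Ptf1a and Rbpjl, which encode partners in PTF1, had estimates of opposite sign with AM580 and with 9-cis retinoic acid, and neither was called. With the library set term the log2 change of Ptf1a was 0.28 ± 0.15 with AM580 (edgeR FDR = 0.808), 0.15 ± 0.15 with CD3254 (FDR = 1), -0.08 ± 0.15 with the joint treatment (FDR = 1) and 0.28 ± 0.15 with 9-cis retinoic acid (FDR = 0.98). That of Rbpjl was -0.25 ± 0.22, 0.11 ± 0.22, -0.19 ± 0.22 and -0.22 ± 0.22 in the same order, with edgeR FDR between 0.808 and 1. Both intervals in each of these comparisons included 0. Without AM580 replicate 1 the Rbpjl value with AM580 was -0.049. For Ptf1a the interaction of AM580 with CD3254 was -0.50 ± 0.21 (unadjusted p = 0.0329, edgeR FDR = 0.961), the value of largest size among the 9 members. Without the set term it was -0.48 ± 0.73 (FDR = 1).

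Bhlha15 with 9-cis retinoic acid had the smallest unadjusted p of the 36 comparisons in the fit with the term, 0.0115. That log2 change was 0.39 ± 0.13 (edgeR FDR = 0.98), and it was 0.26 without 9-cis retinoic acid replicate 3. The other 3 estimates for Bhlha15 were 0.28 ± 0.13 with AM580, 0.05 ± 0.13 with CD3254 and 0.14 ± 0.13 with the joint treatment, with edgeR FDR of 0.808, 1 and 1. The remaining 3 members had small estimates. Hnf4a lay between -0.15 and 0.15, Foxa2 between 0.01 and 0.24, and Nr5a2 between -0.20 and 0.18 over the 4 ligand treatments. Nr5a2 with AM580 includes replicate 1, where it stood 0.81 lower on the log2 scale than in the rest of the smaller set.

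Genes related to the factors by function were not called with a ligand either. In both fits, 0 of 4 PTF1 partners, 0 of 21 other pancreatic and foregut transcription factors tested, 0 of 31 acinar enzyme and secretory genes and 0 of 8 secretory genes linked to Mist1 passed the threshold in any of the 4 comparisons with DMSO. The share of all tested genes called in these comparisons was at most 0.0179% without the term and at most 0.125% with it. The retinoid check genes did pass: with the set term Rarb (the receptor RARβ), Cyp26b1 and Dhrs3 (a retinaldehyde reductase) rose with the joint treatment, 3 of 3 tested. The same 3 were called with 9-cis retinoic acid, Cyp26b1 and Dhrs3 with AM580, and Cyp26b1 with CD3254. With the joint treatment Dhrs3 rose by 3.14 ± 0.23 on the log2 scale (edgeR FDR = 1.19e-05).

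**Figure D2:**
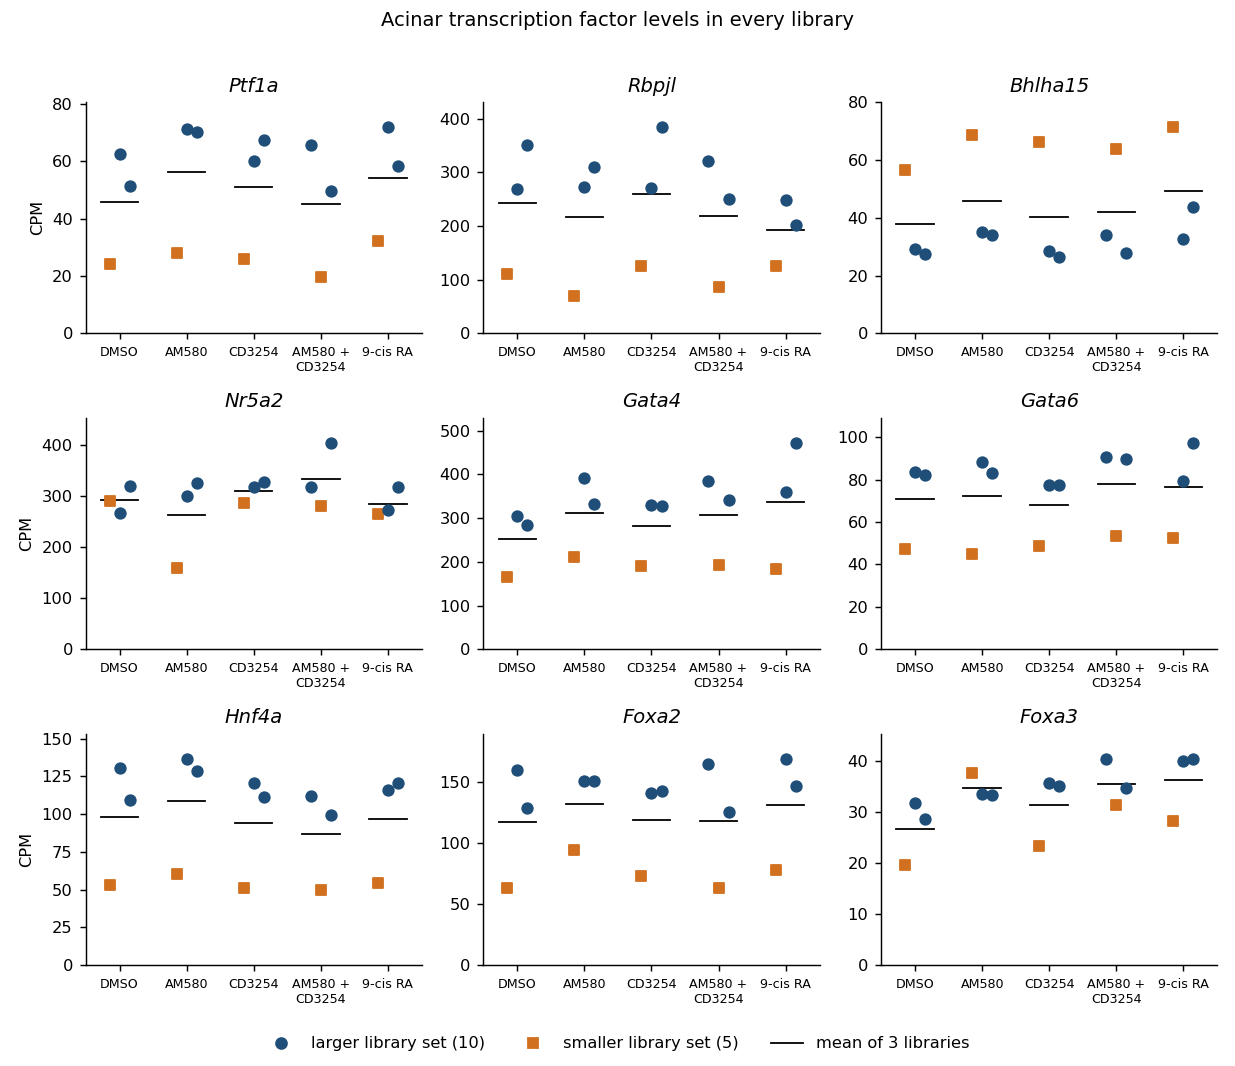
CPM (y axis, from 0) of each factor in all 15 libraries, by treatment (x axis). Blue circles are the 10 libraries of the larger set, orange squares the 5 of the smaller set, and lines the mean of 3 libraries. The orange squares lie below every blue circle for 6 factors and above every one for Bhlha15.

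Most of the factors differed more between the library sets than between treatments. Ptf1a, Rbpjl, Gata4, Gata6, Hnf4a and Foxa2 were lower in all 5 libraries of the smaller set than in any of the other 10, Bhlha15 was higher in all 5, and Nr5a2 and Foxa3 overlapped. Thus 6 of 9 members were lower without overlap, beside 12.6% of all tested genes, and 1 of 9 was higher, beside 13.4%. The members' median difference was -0.90 on the log2 scale (log2 of CPM + 0.5, smaller minus larger set, averaged over 5 treatments), and that of all tested genes was -0.01. These counts describe the libraries and carry no test.

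Rbpjl had the largest difference in mean log2. Its level in the smaller set was 111 CPM with DMSO, 70.6 with AM580, 125 with CD3254, 86.2 with the joint treatment and 125 with 9-cis retinoic acid. In the larger set it ran from 203 to 384 CPM with a median of 272. The difference was -1.49 ± 0.44 (SD over 5 treatments), and the medians differed 2.46-fold. AM580 replicate 1 was the lowest library, and without the AM580 libraries the difference was -1.35. Rbpj, the ubiquitous paralog that RBPJL replaces in the mature complex, ran the other way, from 71.4 to 96.5 CPM in the smaller set and 56.0 to 79.3 CPM in the larger one, with overlap. The ratio of Rbpjl to Rbpj per kilobase was therefore 1.99 to 3.40 in the smaller set and 6.26 to 14.1 in the larger set, without overlap.

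Ptf1a stood at 24.2, 27.9, 26.1, 19.6 and 32.4 CPM in the smaller set, in the order DMSO, AM580, CD3254, joint treatment and 9-cis retinoic acid. The other 10 libraries held 49.8 to 71.9 CPM with a median of 64.1. The difference was -1.26 ± 0.19, a 2.45-fold gap between medians. The antisense gene Ptf1aos was at a median of 0.0813 CPM in the smaller set and 0.289 CPM in the larger one. Of the E proteins that pair with PTF1A, Tcf12 was lower without overlap (110 to 188 against 202 to 343 CPM), whereas Tcf3 (184 to 286 against 203 to 231 CPM) and Tcf4 (39.5 to 107 against 80.0 to 188 CPM) overlapped. PTF1 partners were thus lower without overlap in 1 of 4 cases, beside 12.6% of all tested genes, and higher in 0, beside 13.4%.

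Bhlha15 ran opposite to the other members. It was at 56.7 CPM with DMSO, 68.8 with AM580, 66.3 with CD3254, 63.9 with the joint treatment and 71.4 with 9-cis retinoic acid in the smaller set. In the larger set it was at 26.5 to 43.7 CPM with a median of 30.9. The difference was 1.03 ± 0.13, with medians 2.14-fold apart, and every treatment gave at least 0.91. The ratio of Bhlha15 to Ptf1a per kilobase moved from a median of 0.211 (0.169 to 0.323) in the larger set to 1.06 (0.953 to 1.40) in the smaller one. In the latter the 2 genes were at like levels per kilobase.

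Of the foregut factors, Hnf4a had the most even difference. It was at 53.3, 60.4, 51.2, 50.02 and 54.6 CPM in the smaller set, in the order given for Ptf1a, and at 99.1 to 137 CPM with a median of 118 in the larger one. The 5 treatments gave a difference of -1.13 ± 0.04. Foxa2 was at 62.9, 93.8, 72.8, 63.0 and 77.6 CPM against 126 to 169 CPM, a difference of -1.002 ± 0.21, and its highest value in the smaller set was again AM580 replicate 1. Foxa3 changed less, from 34.9 to 28.3 CPM in the medians, with a difference of -0.35 ± 0.33 that was above 0 for AM580 (0.17) and below 0 for the other 4 treatments. Accordingly the ratio of Foxa2 to Foxa3 per kilobase was 3.10 to 4.31 in the larger set and 1.72 to 2.75 in the smaller one, without overlap.

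Both GATA factors were lower. Gata4 was at 165 to 210 CPM in the smaller set and 285 to 472 CPM in the larger one, a difference of -0.90 ± 0.16. Gata6 was at 44.8 to 53.4 against 77.5 to 97.3 CPM, a difference of -0.78 ± 0.10. Their ratio per kilobase overlapped between the sets, at 5.79 to 7.83 and 5.78 to 8.08. Nr5a2 was the member closest to even. Its smaller-set values were 290, 160, 285, 280 and 263 CPM in the order given for Ptf1a, and its larger-set range was 266 to 403 CPM. The difference of -0.33 ± 0.38 was largest with AM580 (-0.97) and was -0.17 without the AM580 libraries. It was below 0 in all 5 treatments, from -0.35 with the joint treatment to -0.0037 with DMSO outside AM580.

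**Figure D3:**
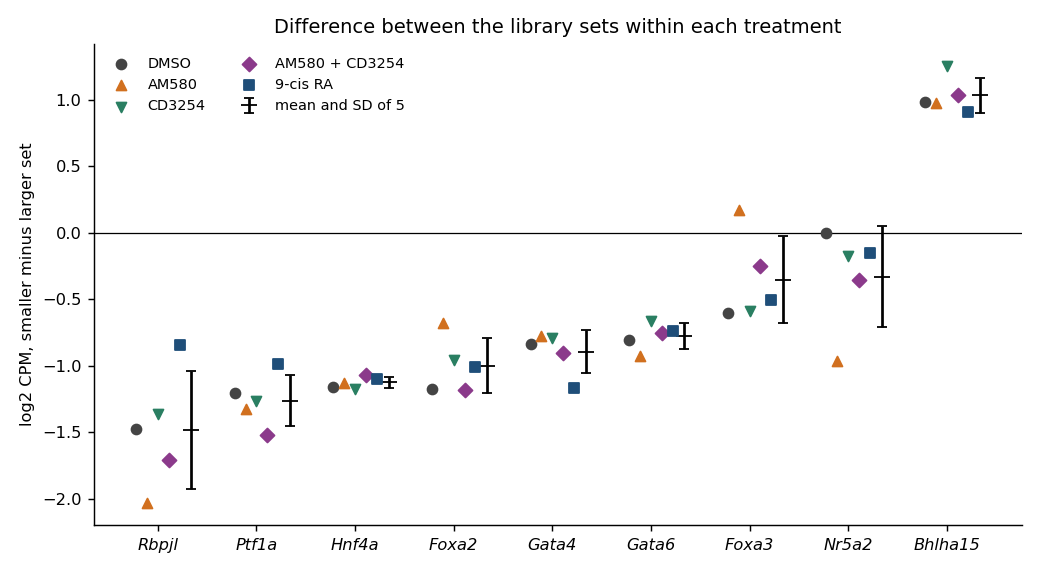
Log2 difference in CPM between the smaller and the larger library set within each treatment (y axis) for each factor (x axis), with the mean and SD of 5 treatments in black. Hnf4a has the tightest points at -1.13 ± 0.04, Bhlha15 alone lies above 0 in all treatments, and the AM580 triangle stands apart for Nr5a2 and Foxa3.

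For other pancreatic regulators and the genes downstream, the shares to compare were 12.6% of all tested genes lower without overlap and 13.4% higher. Of 21 further pancreatic and foregut transcription factors tested, 7 were lower without overlap, 1 higher and 13 overlapped, with a median difference of -0.45. Among the 4 most abundant, Pdx1, the regulator of pancreas identity, was at 65.1 to 87.8 against 179 to 224 CPM (-1.41 ± 0.18), and Prox1 at 79.3 to 161 against 198 to 346 CPM. Id2, which encodes an inhibitor of helix-loop-helix dimers, was the 1 that was higher, at 141 to 224 against 57.5 to 127 CPM. Xbp1, a factor of the secretory stress response, overlapped at 450 to 617 and 457 to 607 CPM. Of 31 enzyme and secretory genes tested, 3 were lower and 1 higher, both below the shares over all tested genes, and 27 overlapped. Their median difference was -0.11. The most abundant of them, Ctrb1, overlapped (3868 to 7201 against 3841 to 7061 CPM), as did Cela1 (777 to 1849 against 1345 to 3275 CPM). The 3 lower genes were Cel, Zg16 and Cckar and the higher was Cuzd1, named after their values were seen. Of the 8 secretory genes linked to Mist1, 3 were higher without overlap, 1 lower and 4 overlapped, and the list's median difference was -0.34, of opposite sign to that of Bhlha15. Derl3 was at 73.6 to 136 against 18.2 to 33.1 CPM. Rab3d, a GTPase of secretory granules, was at 74.6 to 115 against 42.4 to 65.7 CPM. Copz2, a subunit of the vesicle coat COPI, was at 24.3 to 41.1 against 9.96 to 15.1 CPM. Rab26, also among the 4 most abundant of the list, overlapped at 13.9 to 18.6 and 14.9 to 23.9 CPM. Gjb1, a gap junction gene, named after its values were seen, was the lower one, at 4.41 to 6.87 against 14.96 to 23.7 CPM.

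The hypoxia list differed as a whole between the sets. Its part in the members' differences, and that of other cell types, was not tested. Nor was that of mitochondrial reads. Mitochondrial genes took 1.32% to 2.13% of gene reads in the smaller set and 2.40% to 3.46% in the larger one, without overlap. Hypoxia genes were higher without overlap in 11 of 11 matched and tested cases, with a median difference of 3.40. Their summed level was 6303 to 9336 CPM in the smaller set and 1105 to 1604 CPM in the larger one, and Bnip3, a mitophagy receptor, was at 820 to 951 against 38.5 to 84.1 CPM. Over all tested genes, 12.6% were lower without overlap and 13.4% higher, and the counts for other cell types were not tested against these shares. Of the tested hepatocyte markers 2 of 5 were lower, with sums of 33.9 to 64.5 against 55.6 to 79.2 CPM. Of the ductal markers 1 of 10 was higher (383 to 517 against 393 to 619 CPM summed), and of the endocrine markers 0 of 5 differed without overlap (254 to 455 against 189 to 378 CPM). Stromal markers gave 1 lower and 1 higher of 6 (137 to 236 against 72.5 to 149 CPM), immune markers 1 higher of 3 (9.84 to 24.8 against 4.77 to 8.52 CPM) and endothelial markers 0 of 2 (1.15 to 1.59 against 1.13 to 3.42 CPM). The endocrine sum was mostly Chga, the stromal sum mostly Vim and the immune sum mostly Cd68, while Ins1 was at 0 and Ptprc near 0. In bulk RNA, fewer cells of a type and less RNA per cell cannot be told apart.

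**Figure D4:**
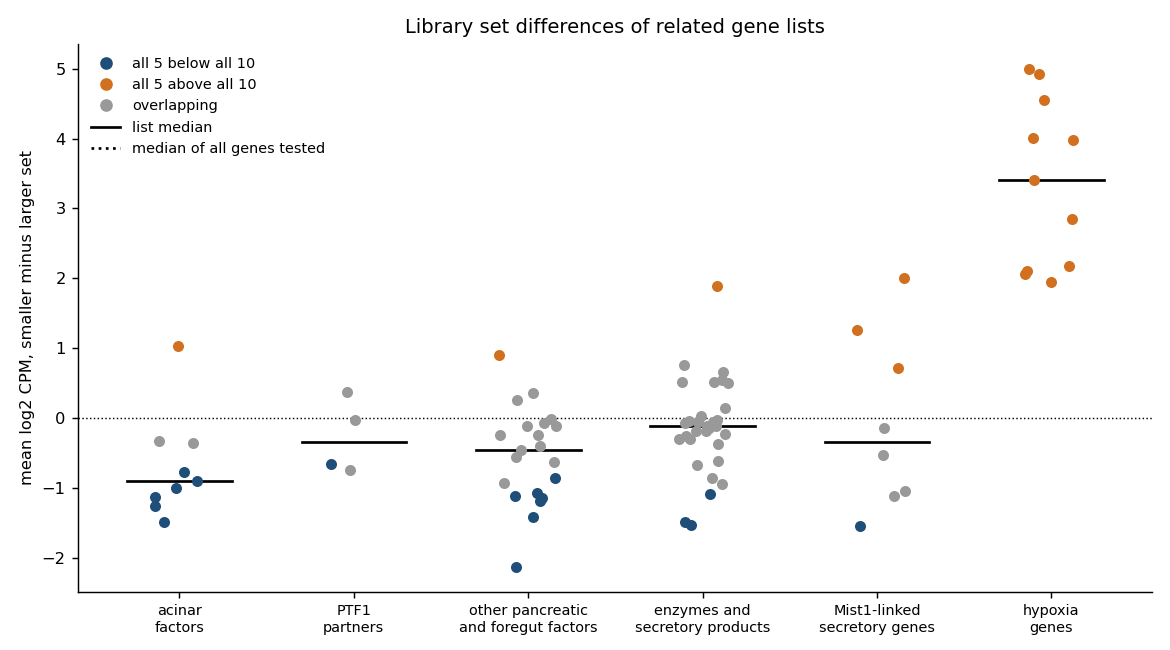
Mean log2 difference in CPM between the smaller and the larger library set (y axis) for the tested genes of 6 lists (x axis). Each point is a gene, blue where all 5 libraries lie below all 10, orange where they lie above and grey where they overlap, with list medians as bars. The acinar factors' median is -0.90, and all 11 hypoxia genes are orange.

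Within the larger set, the protein-coding genes whose log2 CPM followed each factor most closely over the 10 libraries were listed among 12282 genes with a mean of at least 1 CPM. They were Ina and Stx1a for Ptf1a (Pearson r 0.97 and 0.96), Rsrp1 and Arglu1 for Rbpjl (0.95 and 0.95), Sox12 and Sipa1 for Bhlha15 (0.97 and 0.95), and Ttc39b and Nufip2 for Nr5a2 (0.98 and 0.98). For Gata4 Mavs is given (0.98), for Gata6 Syt7 and Asap1 (0.94 and 0.94), and for Hnf4a Ezr and Msn (0.93 and 0.91). Foxa2 had Nutf2 and Mtx1 (0.98 and 0.98), and Foxa3 had Cdkn1a and Leprotl1 (0.90 and 0.90). The number of genes above 0.9 ran from 0 for Foxa3 to 206 for Nr5a2. These libraries differ in treatment and depth and include 1 with few gene reads. Each gene named was picked as the closest of 12282 over only 10 libraries, which favours high r. The values describe these libraries and carry no p.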

How the data were processed

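The authors deposited raw read counts per Ensembl gene for 15 libraries, with no normalization. FastQC, HISAT2 2.2.1, SAMtools 1.18, HTSeq and the mm10 build are named in the submitters' processing notes. The annotation release and strand setting: not given in the sources used here. Library sizes and tests leave out the 5 rows that name no gene. Of 43432 identifiers, 42462 matched a symbol.

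The counts of all 15 libraries were fitted together with edgeR 4.0.16 (R 4.3.3, limma 3.58.1): filterByExpr, TMM scaling, robust quasi-likelihood F tests, two-sided, with Benjamini-Hochberg adjustment over 16736 genes (FDR, threshold 0.05). The residual degrees of freedom were 10, and 9 with the library set, which was read from these counts, as a term. The term lowered the median biological coefficient of variation from 0.305 to 0.193. CPM uses TMM-scaled totals, and levels between genes are per kilobase of GENCODE M21 exon union. Motif shares are over 32851 RefSeq promoters. The fitting code was tested on simulated data. Alternatives were RLE scaling, DESeq2 1.42.0, no filter, a replicate block, the larger set alone and leaving out each library. Leaving out AM580 replicate 1 with 9-cis retinoic acid replicate 3, DESeq2 with the set term, and the set difference without the AM580 libraries were added after the data were seen.

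The members, the 12 other lists and the tests were chosen with earlier results of these data known. All members are named. From other lists, genes past the threshold are named, or at most the 4 with the highest mean CPM, and for likeness the 2 closest genes. The pancreatic amylase genes, Ins1 and Ptprc, all low, are named outside this rule, as are the genes marked as named after their values were seen. A likeness result for Gata4 is not reported here. Deviations from group means correlated between same-numbered DMSO and AM580 libraries at 0.278 to 0.571, and DMSO and CD3254 at 0.370 to 0.815. The range was 0.388 to 0.744 for DMSO and 9-cis retinoic acid and 0.438 to 0.620 for AM580 with CD3254. Every pair passed 0.1 in these cases. The smaller-set library has the same number in these groups, which by itself can give such correlations, and differently numbered libraries were not compared. The values thus cannot show that the numbers pair the samples, and the replicate block stands only as an alternative. Not every pair passed for 9-cis retinoic acid with AM580 (lowest 0.088) or CD3254 (lowest 0.044), or for any group with the joint treatment (-0.593 for DMSO). Replicate 1 of the 4 other groups, and replicate 2 of the joint treatment, is the smaller-set library.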

Additional observations from a re-analysis of the deposited data

How the results depend on the processing

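In 156 counts of members called under the alternatives, 0 were above 0. The smallest adjusted p of a member was 0.0874, for Foxa3 with the joint treatment (log2 change 0.44) in the edgeR fit with the set term that leaves out both AM580 replicate 1 and 9-cis retinoic acid replicate 3, an alternative chosen after seeing the data. In that fit Nr5a2 with AM580 turned to 0.050. The replicate block changed no call, and with it the log2 change with the joint treatment turned to 0.21 for Ptf1a, 0.15 for Rbpjl and 0.032 for Hnf4a. Foxa2 with the joint treatment was -0.0023 with the block and the set term, and -0.0011 with no filter on low counts. In the larger set alone Ptf1a with the joint treatment was 0.021, Bhlha15 with CD3254 -0.046, Foxa2 with CD3254 -0.025, Nr5a2 with AM580 0.096 and Nr5a2 with 9-cis retinoic acid 0.0072. The set differences of all 9 members moved by less than their SD over treatments under raw library totals, without 9-cis retinoic acid replicate 3 and without the AM580 libraries. Leaving out 1 library at a time turned the sign of many uncalled log2 changes. Ptf1a ran from -0.020 to 0.62 with AM580, -0.17 to 0.45 with CD3254, -0.41 to 0.32 with the joint treatment and -0.077 to 0.52 with 9-cis retinoic acid. In the same order Rbpjl ran from -0.52 to 0.26, -0.30 to 0.43, -0.54 to 0.22 and -0.70 to 0.0047, Gata6 from -0.21 to 0.27, -0.31 to 0.11, -0.095 to 0.34 and -0.13 to 0.31, Hnf4a from -0.16 to 0.44, -0.36 to 0.23, -0.47 to 0.10 and -0.32 to 0.27, and Foxa2 from -0.14 to 0.46, -0.30 to 0.30, -0.32 to 0.30 and -0.14 to 0.45. Bhlha15 ran from -0.13 to 0.67 with AM580, -0.48 to 0.50 with CD3254 and -0.29 to 0.56 with the joint treatment, Gata4 from -0.078 to 0.37 with CD3254, and Nr5a2 from -0.36 to 0.099 with AM580 and -0.12 to 0.023 with 9-cis retinoic acid. With the set term kept, values that turned without DMSO replicate 1 were -0.017 for Gata6 with AM580, -0.038 and -0.071 for Foxa2 with CD3254 and the joint treatment, and 0.089 for Nr5a2 with 9-cis retinoic acid. Without DMSO replicate 2 they were -0.049 for Nr5a2 and 0.014 for Hnf4a with CD3254, and 0.070 for Hnf4a with 9-cis retinoic acid. Without DMSO replicate 3 they were -0.011 for Gata6 with AM580, and -0.018 and -0.053 for Foxa2 with CD3254 and the joint treatment. Without a treated library they were, for AM580, 0.039 for Nr5a2 (replicate 1) and -0.065 and -0.013 for Gata6 (replicates 2 and 3). For CD3254 they were -0.070 for Bhlha15 and -0.0064 for Nr5a2 (replicate 1) and -0.010 for Rbpjl (replicate 3). For the joint treatment they were 0.015 for Ptf1a (replicate 2) and -0.14 for Foxa2 (replicate 1), and for 9-cis retinoic acid 0.030 for Nr5a2 and 0.0094 for Hnf4a (replicate 2). The cause was not tested. 9-cis retinoic acid replicate 3 had the fewest gene reads, 14600962. The 4 values of Foxa3 kept their sign under every alternative run.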
